A study of Mus musculus with 32 samples.

Results

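The ribosome-bound RNA of Sox2-lineage cells of the mouse cochlea was compared between 6 h after a loud noise and no noise. These pull-down (IP) libraries were chosen by their strain, library type and time labels and number 4 of the 32 libraries of the series. Both groups were 10-week-old mice labelled Sox2Cre/+;RiboTagHA/+, from a Sox2CreERT2;RiboTag;CBA strain, so the tagged ribosome and the Cre were shared by noise and control animals. The 2 libraries of the 6 h group (replicates 2 and 4) came from mice given 105 dB SPL noise for 2 h, and the 2 control libraries (replicates 1 and 4) from mice given none. Set beside them were the 3 pull-downs at 24 h and the whole-cochlea RNA (input) of the same homogenates. Also used were the pull-downs of the outer hair cell strain (PrestinCre/+;RiboTagHA/+, also 10 weeks old), with 3 libraries each for control and 6 h. Noise was likewise 105 dB SPL for 2 h in the 24 h group and in the 6 h group of the outer hair cell strain. All 43947 genes in the files of the Sox2 strain were considered, and 17577 reached 1 TPM (a length-corrected share of the library's transcripts, the unit of the deposited values) in at least 2 of the 7 pull-downs and were tested.

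In a RiboTag mouse, Cre recombinase switches the ribosomal protein Rpl22 to a version with an HA tag, so an HA antibody pulls down ribosomes, and the mRNA on them, from cells in which Cre was active. Supporting cells surround the hair cells of the organ of Corti, hold them in place, clear ions and neurotransmitter and connect to each other by gap junctions. In many tissues, injury first switches on immediate early genes, whose products are transcription factors and signal inhibitors, and then cytokines that call in blood cells. The promoter that drives Cre here is active beyond supporting cells, since Schwann cells and satellite glia also use Sox2.

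The libraries carried that mixed origin. Sox2 stood 10.3 and 9.85 times higher in the pull-down than in its own input in the 2 controls and 7.58 and 8.02 times at 6 h. The outer hair cell gene Slc26a5 (prestin) read 0.533 to 3.33 TPM in these 4 pull-downs. The median enrichment over input, on the log2(TPM + 1) scale, was 1.81 and 1.41 for 21 supporting cell markers in the controls and 1.70 and 1.79 at 6 h. For 18 Schwann and satellite glia markers it was as large or larger, at 2.33 and 1.48 in the controls and 2.34 and 2.49 at 6 h. The pull-down is therefore named by its strain below. The control libraries differed from each other: the Schwann markers summed to 7294 and 3489 TPM, against 6886 and 8969 TPM at 6 h. Fewer genes were above 0 at 6 h, 16813 and 16537, than in the controls, 19230 and 17395, or at 24 h, 18905 to 20434. The inputs of the same strain did the same, with 16966 and 15929 genes at 6 h against 19760 and 19748 in controls, while the outer hair cell pull-downs had 18592 to 19382 at 6 h and 18862 to 19212 in controls. Mitochondrially encoded genes took 8.83% and 7.21% of the TPM at 6 h, 3.07% and 4.35% in controls and 3.63% to 5.80% at 24 h. Sequencing depth is unknown, since TPM keeps none, so whether fewer genes above 0 reflects depth was not tested.

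At 6 h after noise, a stress hormone, a monocyte-attracting chemokine and a set of early response factors stood well above their control level in the Sox2 pull-down. Of the genes tested, 38 were higher and 84 lower than in controls by limma with Benjamini-Hochberg adjustment at 0.05, together 122 or 0.694% (0.216% higher, 0.478% lower). The median log2 fold change over all genes was -0.07. The largest rises among named genes were Gdf15, Gem, Ccl2, Clic3 and Maff, each with both 6 h libraries above both controls. Groups that do not overlap were a condition for naming the largest rises and falls, so this is no separate evidence for them. Every fold change below is a difference of mean log2(TPM + 1) with its standard error, which understates the change of genes near 0, and n is 2 libraries for control and 6 h and 3 for 24 h. In a bulk pull-down, fewer cells of a type and less RNA per cell cannot be told apart.

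Gdf15, a secreted stress hormone of the TGF-beta family (chr8:70629393-70632456, minus strand, GRCm38), read 6.71 and 12.04 TPM in the controls and 326 and 569.5 TPM at 6 h. Both noise libraries were far above both controls, a log2 fold change of 5.43 ± 0.56 (SE; adjusted p = 0.0254 by limma) and a ratio of mean levels of 47.8. The level was lower again at 24 h, at 11.4, 28.5 and 30.9 TPM, with 2 of the 3 libraries still above both controls. Ccl2, the chemokine that draws monocytes to injured tissue, read 2.22 and 0.867 TPM in controls and 79.9 and 76.3 TPM at 6 h. Its log2 fold change was 5.01 ± 0.33 (adjusted p = 0.00975, limma), and unlike Gdf15 it still read 75.7, 59.9 and 49.5 TPM at 24 h. Clic3, a member of the chloride intracellular channel family (chr2:25456838-25458776, plus strand), read 0.719 and 0 TPM in controls and 25.4 and 23.8 TPM at 6 h. The groups lay apart, with a log2 fold change of 4.29 ± 0.48 (adjusted p = 0.0320, limma). The 24 h libraries lay between them at 7.16, 2.62 and 5.72 TPM. Clic3 did not pass with a pseudocount of 0.1 (adjusted p = 0.0556, limma) or without a filter (adjusted p = 0.0628, limma).

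**Figure D1:**
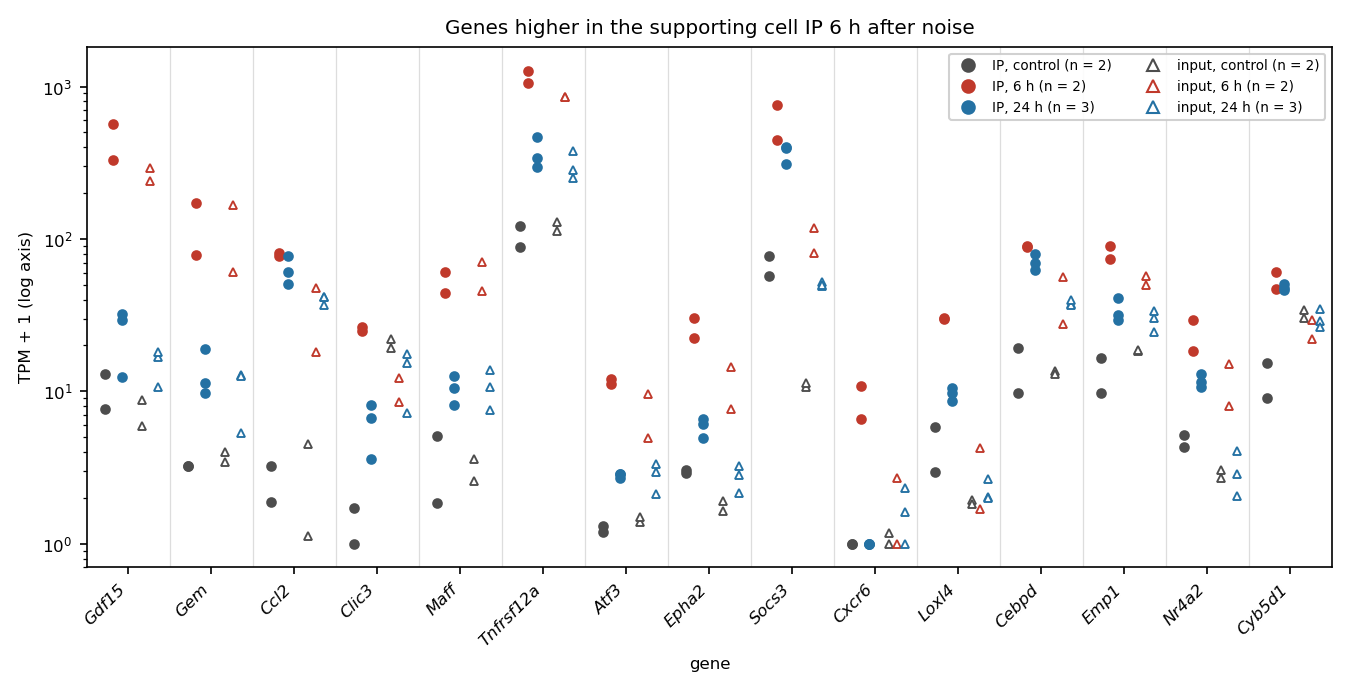
Level of each of the 15 named genes that rose in the Sox2 pull-down 6 h after noise; the vertical axis is TPM + 1 on a log axis, and each point is one library, filled for the pull-down (IP) and open for the input, grey for control, red for 6 h and blue for 24 h. All red filled points lie above all grey filled points, which the rule for naming these genes required. The blue points of Ccl2 (49.5 to 75.7 TPM) stay near the red, while those of Gdf15 (11.4 to 30.9 TPM) are far below the red.

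Among genes of the early transcriptional response, 7 of 28 immediate early genes rose and none fell, and 27 of the 28 had a positive fold change, with a median of 1.27 against -0.07 for all genes. At an unadjusted p under 0.05, 20 of them were higher, against 6.83% of all genes tested, which were higher, and 11.2%, which were lower. Atf3, a stress-induced transcription factor of the CREB family, went from 0.197 and 0.301 TPM to 10.2 and 11.0 TPM. Both 6 h libraries were above both controls, with a log2 fold change of 3.22 ± 0.28 (adjusted p = 0.0193, limma), and 24 h levels of 1.72 to 1.86 TPM lay between. The small Maf factors Maff and Mafk, which pair with other leucine zipper proteins, rose together. Maff went from 4.11 and 0.839 TPM to 43.3 and 59.9 TPM (4.08 ± 0.52), and Mafk from 21.1 and 25.8 TPM to 97.5 and 104 TPM (2.06 ± 0.21). Nr4a2, an orphan nuclear receptor, read 4.14 and 3.33 TPM in controls and 17.5 and 28.5 TPM at 6 h, a rise of 2.31 ± 0.29. Junb, a partner in the AP-1 factor, rose by 1.85 ± 0.18, from 122 and 105 TPM to 363 and 469 TPM. Zfp36, which marks cytokine mRNAs for decay, was already abundant at 544 and 552 TPM and reached 1341 and 1407 TPM, a rise of 1.32 ± 0.15. Klf4 also rose, from 120.5 and 163 TPM to 379 and 509 TPM. The best known member, Fos, did not pass the test: it read 88.0 and 109 TPM in controls and 327 and 671 TPM at 6 h (adjusted p = 0.0605, limma). Egr1 read 106 and 119 TPM against 238 and 376 TPM (adjusted p = 0.0710). In both genes the groups did not overlap, and the 2 noise libraries differed widely. The rise of this list was not particular to the Sox2 pull-down. In the inputs 5 of the 28 rose, 23 were higher at an unadjusted p under 0.05, and the median was 1.34. The median response of the Sox2 pull-down minus that of the input was -0.09. Minus that of the outer hair cell pull-down it was -0.72, and 0 of the 28 passed in either comparison.

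Feedback inhibitors of MAP kinase signalling showed smaller differences. Of 13, Errfi1, an inhibitor of the EGF receptor, rose, from 212 and 217 TPM to 408 and 472 TPM (log2 fold change 1.03 ± 0.14, adjusted p = 0.0487, limma). The list's median was 0.85, and 6 members were higher at an unadjusted p under 0.05. The phosphatase Dusp6 read 110.4 and 97.1 TPM in controls and 224 and 252 TPM at 6 h, just short of the threshold (adjusted p = 0.0515).

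Genes of STAT3 signalling and the acute phase response formed the second group with several rises, 3 of 15, with a median of 1.68 and 9 higher and 1 lower at an unadjusted p under 0.05. Socs3, the feedback inhibitor of STAT3, read 56.5 and 76.5 TPM in controls and 448 and 754 TPM at 6 h, and still 308 to 401 TPM at 24 h. Its groups lay far apart, with a log2 fold change of 3.12 ± 0.31 (adjusted p = 0.0236, limma). Cebpd, a transcription factor of acute inflammation, rose by 2.70 ± 0.33, from 18.1 and 8.80 TPM to 89.3 and 87.2 TPM, and stayed at 61.9 to 78.6 TPM at 24 h. Pim1, a kinase induced by STAT factors, rose by 1.96 ± 0.25, from 125 and 94.7 TPM to 372 and 490.5 TPM. Lcn2, an iron-binding acute phase protein, was listed at 0 in both controls and read 12.6 and 6.81 TPM at 6 h (adjusted p = 0.0583, limma). Osmr, a receptor for oncostatin M, read 1.74 and 2.38 TPM against 8.47 and 10.7 TPM (adjusted p = 0.0583).

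Of 19 chemokines and cytokines tested, Ccl2 was the 1 that rose and none fell, with 6 higher and 2 lower at an unadjusted p under 0.05 and a median of 0.78. Ccl7, a close relative of Ccl2 beside it on chromosome 11, read 0.192 and 0.180 TPM in controls and 34.1 and 55.1 TPM at 6 h, but missed the threshold (adjusted p = 0.0618, limma). Cxcl16 read 2.21 and 4.46 TPM against 30.9 and 17.4 TPM (adjusted p = 0.0676). Its receptor Cxcr6 was listed at 0 in both controls and all 3 of the 24 h libraries. It read 5.55 and 9.86 TPM at 6 h and passed (adjusted p = 0.0436, limma). However, it entered the test only through the 6 h libraries, and with a pseudocount of 0.1 it did not pass (adjusted p = 0.0742, limma). Cxcl1 read 50.4 TPM in 6 h replicate 4 and 0 in replicate 2 and in both controls, so its level rests on 1 library.

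Tnfrsf12a, the receptor for the cytokine TWEAK, also rose and was among the most abundant genes called, at 119.7 and 87.0 TPM in controls and 1048 and 1269.6 TPM at 6 h. That is a log2 fold change of 3.49 ± 0.28 (adjusted p = 0.0163, limma) with no overlap, and 24 h levels of 295 to 467 TPM. Gem, a small GTPase that restrains calcium channels, went from 2.23 and 2.22 TPM to 77.3 and 171 TPM (5.17 ± 0.47). Epha2, an ephrin receptor, went from 2.03 and 1.93 TPM to 21.4 and 29.3 TPM (3.13 ± 0.28). Both were lower again at 24 h, at 8.72 to 18.0 TPM for Gem and 3.92 to 5.60 TPM for Epha2. Loxl4, a collagen cross-linking enzyme, rose by 2.85 ± 0.35, from 1.96 and 4.80 TPM to 28.6 and 29.1 TPM. Emp1, a small membrane protein of epithelia, rose by 2.68 ± 0.31, from 8.76 and 15.4 TPM to 89.0 and 72.6 TPM. Cyb5d1, a protein with a cytochrome b5 domain, rose by 2.18 ± 0.29, from 14.3 and 8.10 TPM to 45.6 and 59.9 TPM, and was as high at 24 h, at 45.1 to 49.3 TPM. The small heat shock protein Hspb1 was the 1 of 16 heat shock genes that rose, from 37.7 and 62.6 TPM to 187 and 196 TPM. Also risen, and picked out after their values were seen, were Cd24a, Phlda1, Tnfrsf1a and Gas1, with log2 fold changes of 1.56, 1.33, 1.26 and 1.21. The remaining genes that rose were 8 processed pseudogenes such as Krt8-ps and Zfp36l1-ps, a pair of antisense transcripts, a small nucleolar RNA and the RIKEN gene E230025N22Rik; reads of pseudogenes may belong to near-identical copies.

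The stretch just upstream of the transcription start was read for 11 of the 15 named rises that have an entry in the RefSeq promoter table (GRCm38.p6). Binding motifs were searched on both strands of the 250 bases before the start: AP-1 (TGANTCA), CRE (TGACGTCA), STAT (TTCNNNGAA), NF-kB (GGG and TTTCC with NN between), C/EBP-ATF (TGATGNAAT) and the CArG box. Any of the 6 was found in 3 of the 11 and in 17.8% of all 32851 promoters of the table. The 3 are printed 5′ to 3′ on the gene's strand, with matches in capitals. They were chosen because they hold a match. Epha2 lies at chr4:141300971-141301220 on the plus strand and has a CRE match 33 to 26 bases before the start; CRE matches occur in 1.55% of promoters. Socs3 lies at chr11:117969367-117969616 on the minus strand and has a STAT match 154 to 146 bases before the start; STAT matches occur in 7.02%. Emp1 lies at chr6:135362681-135362930 on the plus strand and has 2 AP-1 matches (found in 6.75% of promoters) and 2 STAT matches, of which the pair nearest the start overlap.
Epha2: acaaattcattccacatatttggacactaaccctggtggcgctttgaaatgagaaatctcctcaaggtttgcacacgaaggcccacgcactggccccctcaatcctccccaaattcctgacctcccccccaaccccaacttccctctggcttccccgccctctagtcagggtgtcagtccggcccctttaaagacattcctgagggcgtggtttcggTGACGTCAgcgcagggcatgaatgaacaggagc
Socs3: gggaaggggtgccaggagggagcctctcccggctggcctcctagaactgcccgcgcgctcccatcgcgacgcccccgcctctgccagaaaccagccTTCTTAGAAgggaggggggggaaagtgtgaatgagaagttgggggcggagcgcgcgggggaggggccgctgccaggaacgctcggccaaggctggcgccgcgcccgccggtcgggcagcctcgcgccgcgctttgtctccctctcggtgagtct
Emp1: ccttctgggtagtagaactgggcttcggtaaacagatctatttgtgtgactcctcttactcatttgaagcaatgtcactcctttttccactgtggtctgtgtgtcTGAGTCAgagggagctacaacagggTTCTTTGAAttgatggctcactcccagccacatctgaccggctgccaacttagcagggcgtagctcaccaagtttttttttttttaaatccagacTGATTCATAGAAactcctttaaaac
A match describes letters only; no binding was measured.

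The genes that were lower at 6 h differed in kind. Of the 84, 29 were protein-coding (34.5%, against 76.9% of all genes tested), 25 were other or long noncoding transcripts, 21 were pseudogenes and 9 were small RNA genes. In 36 of them both 6 h libraries were listed at 0, and in 57 both were below 1 TPM. Their median exonic length was 1104.5 bases, against 2129 for the genes that rose and 3494 for all genes tested. Among protein-coding genes alone the medians were 1615 for those lower, 2594 for those higher and 4301 for all tested. Across all protein-coding genes the median log2 fold change went from -0.22 in the shortest 20% to 0.03 in the longest 20%, and from 0.06 in the 20% of lowest GC content to -0.24 in the 20% of highest. The inputs at 6 h went the same way, from -0.26 to -0.04 by length and from -0.05 to -0.23 by GC content. So did the pull-down at 24 h against control, from 0.01 to 0.17 and from 0.18 to 0.03. How far length, GC content or the lower number of genes above 0 contribute to single falls was not tested.

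**Figure D2:**
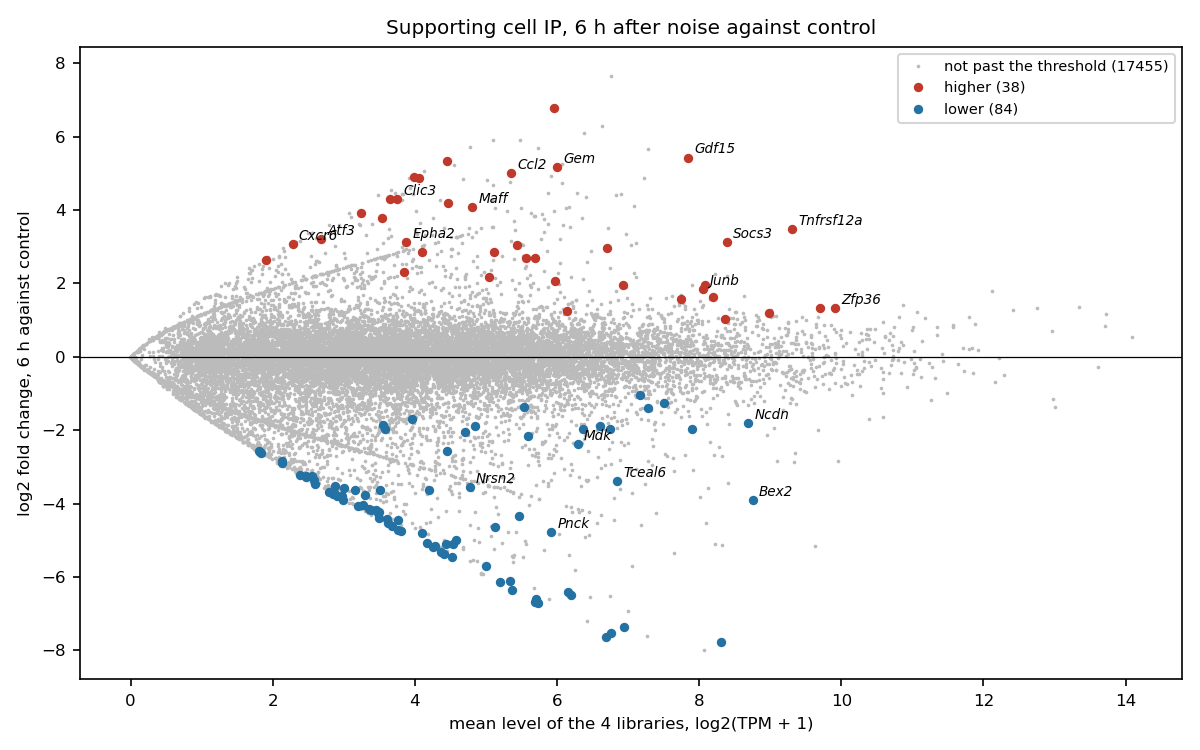
Log2 fold change at 6 h against control (vertical axis) over the mean level of the 4 pull-downs, log2(TPM + 1) (horizontal axis), for every gene tested; red are the 38 genes that were higher, blue the 84 that were lower. Many blue points follow the lower edge of the cloud, where the 6 h level is 0 or close to it, while the red points spread over the whole range of levels.

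The 10 named genes given first fell while still above 0 in a 6 h library. Pnck, a calmodulin-dependent protein kinase, read 118 and 113 TPM in controls and 2.56 and 4.09 TPM at 6 h, with no overlap (log2 fold change -4.78 ± 0.49, adjusted p = 0.0254, limma). Bex2, a small X-linked protein abundant in brain, was the most abundant of them, at 889 and 727 TPM in controls and 42.0 and 66.8 TPM at 6 h (-3.90 ± 0.43). Nrsn2, a membrane protein of small vesicles, read 48.6 and 49.9 TPM against 3.10 and 3.48 TPM (-3.55 ± 0.30), the replicates of each group lying close together, although 16.6% of its exonic bases overlap a transcript on the opposite strand and the counting strand is not given. Tceal6, of a transcription elongation factor-like family on the X chromosome, read 258 and 161 TPM against 14.5 and 23.4 TPM (-3.39 ± 0.31). Zfp428, a zinc finger protein, read 32.9 and 33.0 TPM against 0.979 and 2.77 TPM (-3.64 ± 0.49). These 5 were all detected in both noise libraries. Ndufa4l2, a relative of a respiratory chain subunit that is known to respond to low oxygen, fell from 16.2 and 23.4 TPM to 0.118 and 0.143 TPM (-4.18 ± 0.42). Pnma2, Necab2, Rec8 and Smpd5 were at 9.66 TPM or more in both controls and at 0.122 TPM or less in both 6 h libraries. Apoc1, an apolipoprotein also made by macrophages, read 5.81 and 4.21 TPM in controls and was listed at 0 in both 6 h libraries (adjusted p = 0.0469).

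The 24 h libraries lay between the other groups for most of these. Pnck read 10.7 to 29.9 TPM at 24 h, Bex2 91.3 to 216 TPM, Nrsn2 7.35 to 13.3 TPM and Tceal6 41.7 to 48.6 TPM, each below both controls and above both 6 h libraries. The controls are shared by both comparisons, so the low values at the 2 times are not separate evidence. In the inputs, Pnck read 26.0 and 28.0 TPM in controls and 5.92 and 16.9 TPM at 6 h. Nrsn2 read 13.9 and 19.8 TPM there against 17.3 and 5.50 TPM, which overlap.

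**Figure D3:**
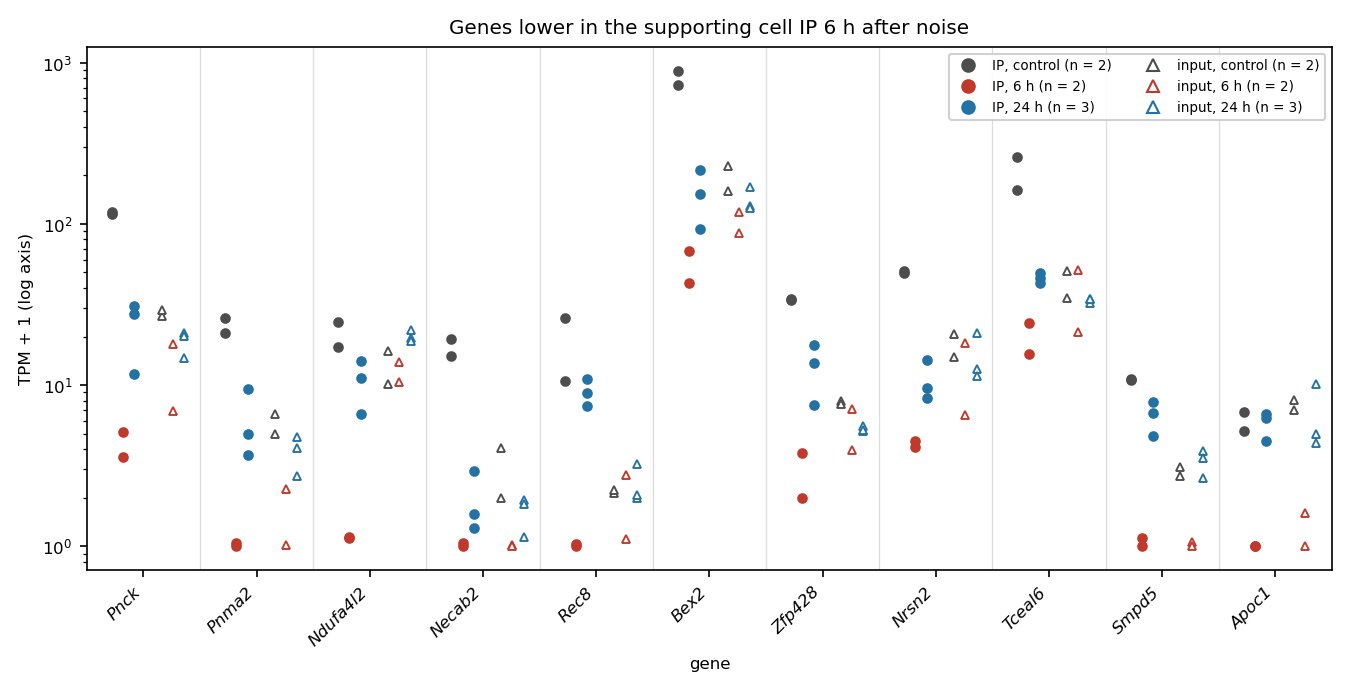
Level of each of the 11 named genes that fell in the Sox2 pull-down 6 h after noise, drawn as TPM + 1 on a log axis; each point is one library, filled for the pull-down (IP) and open for the input, grey for control, red for 6 h and blue for 24 h. All red filled points lie below all grey filled points, which the rule for naming these genes required. The blue ones mostly lie between, as for Bex2 (91.3 to 216 TPM at 24 h).

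More genes that fell were picked out after their values were seen. Mdk, the growth factor midkine, read 137 and 124 TPM in controls and 26.0 and 22.8 TPM at 6 h (log2 fold change -2.37 ± 0.21, adjusted p = 0.0193, limma). Ncdn, the neuronal protein neurochondrin, read 608 and 674 TPM against 162 and 204 TPM (-1.81 ± 0.18). Aprt, an enzyme of adenine salvage, read 159 and 180.5 TPM against 47.5 and 38.3 TPM (-1.97 ± 0.22). In all 3 the groups lay well apart and both noise libraries held clear signal. Ptma, Ddah2, Cops9, Bmyc, Gmppb, Klhdc8b, Cpt1c, Shfl, Fmc1, Lrrc3, Ccdc96 and the ribosomal protein gene Rpl18 fell by between 1.04 (Ddah2) and 3.28 (Lrrc3) on the log2 scale. Rpl18 and Rpl6l were the 2 of 82 genes with ribosomal protein symbols past the threshold, both lower, with a list median of -0.20 and 8 higher and 8 lower at an unadjusted p under 0.05. Small RNA genes reached the largest falls of all: Mir7-1 read 149.8 and 259 TPM in controls, 0 in both 6 h libraries and 83.6 to 104 TPM at 24 h. Snord104 read 268 and 989 TPM in controls and 0 and 4.52 TPM at 6 h. Such short genes often lie inside host transcripts, so reads may be shared with the host, and the values describe the deposited table, not the mature small RNA.

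In other response lists few or no members passed. Of all genes tested 0.694% did, so a count of 0 says little about lists of this size. At an unadjusted p under 0.05, 6.83% of all genes tested in the pull-down were higher and 11.2% lower. Of 24 matrix and wound genes tested, none passed, but 14 were higher at an unadjusted p under 0.05 and the median was 1.02. In the inputs 3 of 22 rose, 13 were higher and 1 lower unadjusted, and the median was 0.83. Thbs1 (thrombospondin) read 21.6 and 28.1 TPM in the control pull-downs and 77.3 and 130.0 TPM at 6 h (adjusted p = 0.0663, limma). None of 17 NF-kB genes passed in the pull-down (6 higher unadjusted, median 0.68). None of 20 unfolded protein response genes did (3 higher unadjusted, median 0.35), and of 20 integrated stress response genes only Gdf15 passed (4 higher and 1 lower unadjusted, median 0.24). None of 17 NRF2 genes (5 higher and 1 lower unadjusted), 18 p53 targets (3 higher) or 30 interferon-stimulated genes (4 higher, median 0.37) passed. Nuclear genes of the respiratory chain went the other way, with none of 17 past the threshold, 8 lower unadjusted and a median of -0.58, while 15 mitochondrially encoded genes had a median of 0.90 and 7 higher unadjusted.

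**Figure D4:**
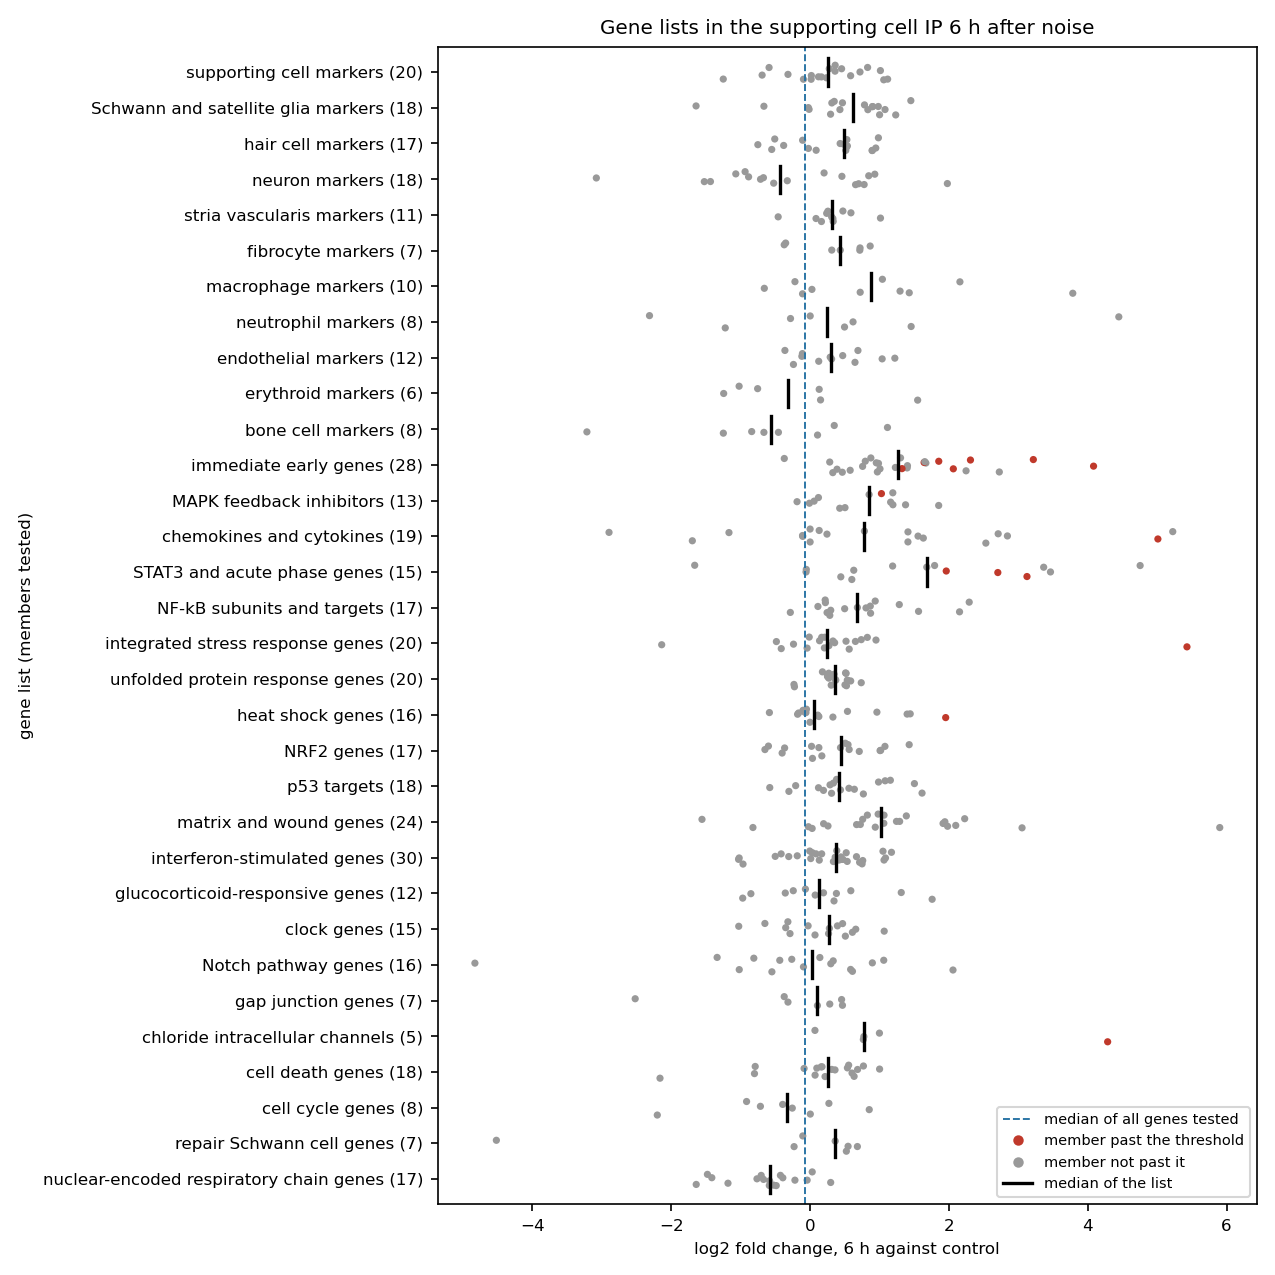
Log2 fold change at 6 h against control (horizontal axis) of each tested member of 32 gene lists in the Sox2 pull-down; black bars are list medians, red points members past the threshold, and the dashed line the median of all genes tested (-0.07). Red points sit in 7 response lists, most of them among the immediate early genes (7 of 28) and the STAT3 and acute phase genes (3 of 15), and in none of the cell type lists.

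Supporting cell identity genes gave no called change, but only 0.694% of all genes tested were called, so this says little about so few genes. Of 20 supporting cell markers tested, 0 passed by limma (3 higher and 1 lower at an unadjusted p under 0.05, median 0.26). Over all genes tested the unadjusted shares were 6.83% higher and 11.2% lower. Sox2 itself read 654 and 320 TPM in controls and 259 and 310 TPM at 6 h. Gjb2, the gap junction protein connexin 26, read 1265 and 1477 TPM in controls and 2062 and 1701 TPM at 6 h, and Gjb6 read 913 and 778 TPM against 695 and 657 TPM. Fgfr3, a receptor of pillar and Deiters' cells, read 194 and 167 TPM against 121 and 118 TPM (adjusted p = 0.239, limma). In the Notch list (0 of 16 passed, 2 higher and 3 lower unadjusted), Hes5, a Notch target, read 146 and 94.5 TPM in controls and 0 and 16.4 TPM at 6 h (adjusted p = 0.141); 31.8% of its exonic bases overlap a transcript on the opposite strand. In the inputs Hes5 did fall, from 15.7 and 16.6 TPM to 0.231 and 0 TPM (adjusted p = 0.00739, limma).

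Markers of other cells moved to differing degrees. The 12 macrophage markers summed to 112 and 207 TPM in controls and 261 and 325 TPM at 6 h; none of the 10 tested passed (3 higher unadjusted, median 0.88). Mpeg1 read 3.94 and 0.290 TPM in controls and 37.2 and 30.7 TPM at 6 h (adjusted p = 0.0716, limma), but 29.8 and 27.8 TPM in the control inputs. Neutrophil markers summed to 44.1 and 179 TPM in controls and 254 and 39.9 TPM at 6 h, and Schwann and satellite glia markers to 7294 and 3489 TPM against 6886 and 8969 TPM. Hair cell markers summed to 467 and 503 TPM against 587 and 409 TPM. None of these lists had a called member, where 0.694% of all genes tested were called. Unadjusted, 6.83% of all genes tested were higher and 11.2% lower. None of the lists had a marker at 0 in all 4 libraries, and their part in the rises above was not tested.

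The calls rest on few libraries. Leaving out control replicate 1, control replicate 4, 6 h replicate 2 or 6 h replicate 4 gave 60, 4, 75 and 31 genes past the threshold, of which 24, 2, 26 and 16 were among the 122. With the 4 libraries alone, without the 24 h pull-downs that help estimate the spread, 0 genes passed by limma (2153 at an unadjusted p under 0.05). With one library left out, the log2 fold change ranged from 5.03 to 5.83 for Gdf15, from 3.90 to 4.68 for Clic3, from 3.35 to 4.82 for Maff and from -4.67 to -3.39 for Rec8. An exact permutation test of 2 against 2 libraries cannot go below p = 0.333.

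The input shows how far the whole cochlea shared the response. In the same homogenates 46 genes were higher and 105 lower at 6 h among 15371 tested, together 0.982% (0.299% higher, 0.683% lower, limma). In both, 11 genes were higher, 28.9% of those higher in the pull-down and 23.9% of those in the input: Gdf15, Gem, Tnfrsf12a, Maff, Junb, Socs3, Epha2, Emp1, Phlda1, Gas1 and the pseudogene Krt8-ps. A further 3 were lower in both (3.57% and 2.86%), and 0 went opposite ways. Gdf15 read 4.92 and 7.78 TPM in the control inputs and 240.3 and 289 TPM at 6 h, close in size to the pull-down. Ccl2 read 3.48 and 0.129 TPM against 17.0 and 46.8 TPM in the inputs and did not pass there (adjusted p = 0.0847). The input calls depended heavily on single libraries: without control replicate 1 there were 0 (1774 at an unadjusted p under 0.05), without control replicate 4 there were 6, and without 6 h replicate 2 there were 2057.

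Clic3 was the named gene whose response differed between pull-down and input both with and without a block for the homogenate. In the inputs it read 21.2 and 18.2 TPM in controls and 11.3 and 7.55 TPM at 6 h, so it was lower after noise where the pull-down was higher. The difference of the log2 responses was 5.30 ± 0.69 (adjusted p = 0.0150, limma interaction term; 0.0410 with the homogenate as a block). Its level in the control pull-downs, 0.719 and 0 TPM, was below that of the other 12 libraries of the strain. In all, 50 of 18560 genes (0.269%) responded differently in pull-down and input, 24 higher (0.129%) and 26 lower (0.14%) in the pull-down. Without control replicate 4 there were 4, and without 6 h replicate 2 there were 454. With the homogenate as a block, which the shared tissue of each IP and input calls for, 3 were left, all higher: Clic3 and a pair of predicted genes.

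The remaining named genes of that comparison passed only without the block. Lower in the pull-down were Ndufa4l2, Cpt1c, Mdk, Zbtb24, Nmral1 and Rsl24d1; Mdk, for example, read 76.8 and 78.0 TPM in the control inputs and 69.9 and 55.2 TPM at 6 h, while the pull-down level fell as given above (difference -2.06 ± 0.24; adjusted p = 0.0114, and 0.0906 with the block). Higher were Ngp, Fdps, Tpt1, Cyb5d1 and Pih1d1. Ngp, a granule protein of neutrophils, read 0.213 and 0.200 TPM in the control pull-downs and 43.9 and 14.4 TPM at 6 h, but 22.5 and 12.7 TPM in the control inputs and 5.12 and 4.07 TPM at 6 h. As for Clic3, its control pull-downs were the libraries that stood apart. Fdps and Tpt1 have near-identical pseudogene copies, and 26.7% of the exonic bases of Fdps are shared with Gm43738 on the same strand, so their counts are uncertain.

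**Figure D5:**
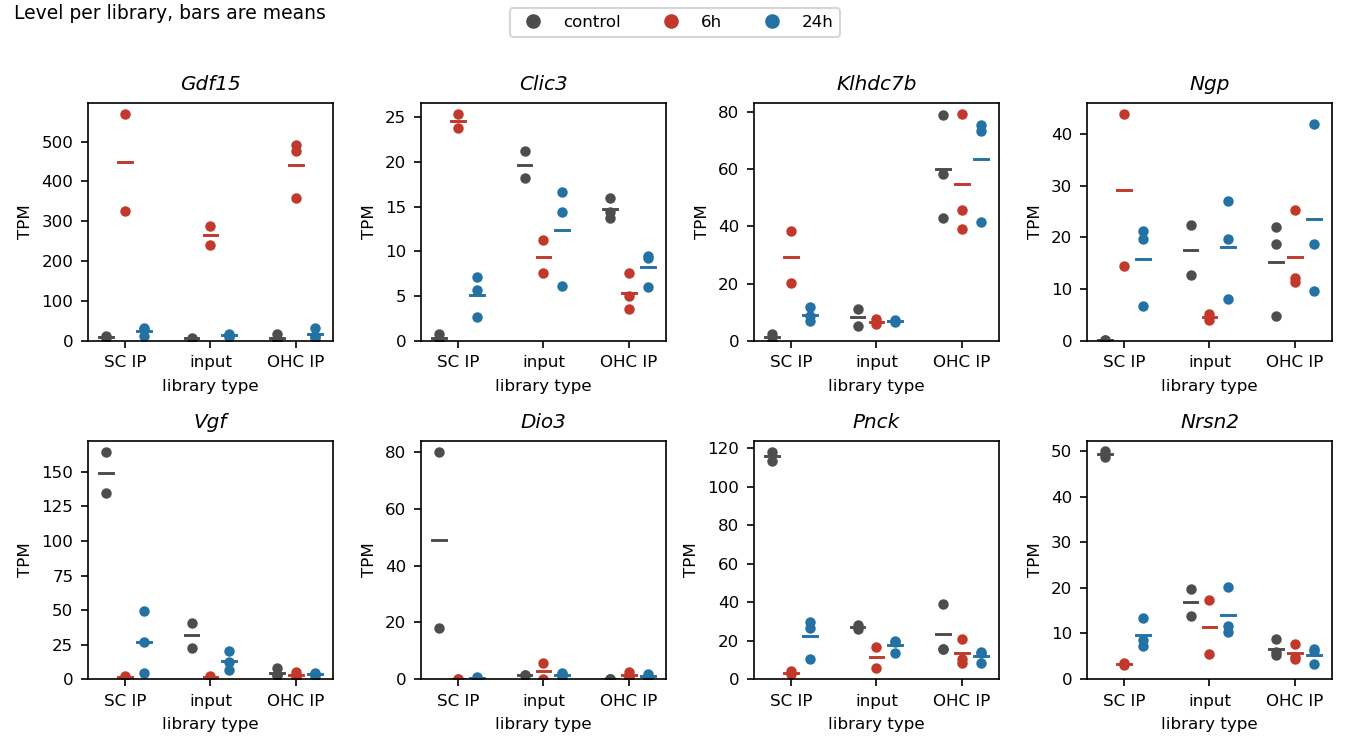
TPM of 8 genes in each library of the Sox2 pull-down (SC IP), the Sox2-strain input and the outer hair cell pull-down (OHC IP); grey is control, red 6 h and blue 24 h, and bars are group means. Gdf15 is high at 6 h in all 3 library types (240.3 to 569.5 TPM), while Clic3 is high at 6 h in the Sox2 pull-down (23.8 and 25.4 TPM) and lower than control in the other library types.

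Gdf15 and Ccl2 were also high at 6 h in the outer hair cell pull-down. Gdf15 read 0.986, 3.28 and 17.5 TPM in its controls and 477, 358 and 492 TPM at 6 h, and the difference from the Sox2 response, -0.92, did not pass (adjusted p = 0.743, limma). Ccl2 read 0 to 5.21 TPM in controls there and 68.2 to 148 TPM at 6 h (difference -0.19, adjusted p = 0.936). Tested as a difference of responses, 98 of 18997 genes (0.516%) passed, 34 higher (0.179%) and 64 lower (0.337%) in the Sox2 pull-down. Median-of-ratios scaling gave 33 higher and 115 lower and moved the median difference over all genes from 0.08 to -0.05. Without 6 h replicate 3 of the outer hair cell strain 53 passed, and without Sox2 control replicate 1 or 6 h replicate 2, 230 and 306.

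Clic3 had the clearest difference here too. Its outer hair cell pull-downs read 15.97, 13.7 and 14.4 TPM in controls and 4.96, 3.55 and 7.62 TPM at 6 h, below all controls. The difference of responses was 5.63 ± 0.52 (adjusted p = 0.000544, limma). The Sox2 pull-downs, with their low Clic3 controls, are shared with the comparison to the input, so this is no separate evidence. Klhdc7b, a kelch-domain protein, read 2.38 and 0 TPM in the Sox2 controls and 20.2 and 38.4 TPM at 6 h, against 42.9 to 78.7 TPM and 39.1 to 79.2 TPM in the outer hair cell strain (4.13 ± 0.71, adjusted p = 0.0292). Neurl3 and Fdps also differed upward.

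Among genes that differed downward, Dio3, the enzyme that inactivates thyroid hormone, read 80.0 and 18.0 TPM in the Sox2 controls, 0 and 0.154 TPM at 6 h and 0 to 0.760 TPM at 24 h. In the outer hair cell strain it was listed at 0 in all 3 controls and read 0.502 to 2.35 TPM at 6 h (difference -6.30 ± 0.84, adjusted p = 0.00768, limma). Vgf, a neuropeptide precursor, read 135 and 164 TPM in the Sox2 controls and 2.18 and 1.21 TPM at 6 h, against 2.60 to 7.95 TPM and 1.38 to 5.12 TPM (-5.39 ± 1.05, adjusted p = 0.0476). Neither passed in the Sox2 pull-down alone (adjusted p = 0.0515 and 0.0710). Gpr25, Bglap2, Lor and Tnfsf9 also differed downward, each with Sox2 levels of 5.88 TPM or less at 6 h. For Pnck and Nrsn2 the differences were -4.04 (adjusted p = 0.0302) and -3.35 (adjusted p = 0.00858).

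Between 6 h and 24 h, 89 genes of the Sox2 pull-down differed (0.506%), 77 higher (0.438%) and 12 lower (0.0683%) at 24 h. Lower at 24 h were Gdf15, Fos, Epha2 and Atf3, among others. Fos went from 327 and 671 TPM at 6 h to 74.0 to 83.7 TPM at 24 h, with all 3 later libraries also below both controls (log2 difference -2.57 ± 0.31, adjusted p = 0.0484, limma). Apom, an apolipoprotein, read 4.38 and 6.23 TPM at 6 h and was listed at 0 in the controls and at 24 h. It thus entered the test only through the 6 h group. Higher at 24 h was Ccl12, a further monocyte chemokine, at 32.9, 22.2 and 9.94 TPM. It was listed at 0 in the controls and the 6 h libraries, so it entered the test only through the 24 h group. BC023105, Lypd2, Higd1b, Bhlhe23 and Ccdc96 were also higher; all but Ccdc96 were listed at 0 in both 6 h libraries. Ccl2, by contrast, differed by -0.36 (adjusted p = 0.654). Leaving out 24 h replicate 1 gave 0 genes (1510 at an unadjusted p under 0.05), and leaving out any other library gave 12 to 46, of which 5 to 13 were among the 89. Median-of-ratios scaling gave 43 and moved the median over all genes from 0.22 to 0.07.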

How the data were processed

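Ribosome-bound RNA (pull-down with an HA antibody) and whole-cochlea RNA (input) were sequenced from stranded libraries, per the labels' protocols. The authors deposited 1 table per library with TPM values (length-corrected transcript abundances), each of which sums to 1000000. Per the submitters' processing notes, TopHat and GRCm38 were used; how genes were counted, on which annotation and strand, is not given in the sources used here. Depth is unknown, so no counting interval is given. Although the labels speak of triplicates, the Sox2 control and 6 h groups have 2 libraries each here. Nothing beyond "biological" says how animals were pooled, so p-values measure the spread between these libraries.

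From the deposited TPM, log2(TPM + 1) was fitted with limma 3.58.1 (R 4.3.3; eBayes with a mean trend) on genes with at least 1 TPM in 2 libraries, with Benjamini-Hochberg adjustment over all genes tested and a threshold of 0.05. The 7 Sox2 pull-downs shared 1 estimate of spread (4 residual degrees of freedom). Differences of responses are interaction terms in fits of 14 (pull-down and input) or 16 libraries. The procedure was tested on simulated data. Identifiers were matched to GENCODE M21, and Python 3.11.15, pandas 2.3.3, numpy 2.4.6 and matplotlib 3.10.9 were used.

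Pull-down and input with the same group and number came from the same homogenate, per the labels' protocols, which pairs them; the correlation of their distances from the means of their groups was 0.048 (controls) and 0.045 (6 h). Control and 6 h pull-downs share only the number 4.

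Named genes for 6 h against control were the up to 15 largest rises, the up to 10 largest falls with a 6 h library above 0 and the up to 5 largest falls at 0 in both. They had to be called, average 5 TPM or more where higher, and not overlap between groups; pseudogenes, predicted genes and small RNAs were left out. From each gene list, up to 4 genes of lowest p were added, and up to 6 genes in each direction in the other comparisons. Genes named outside these rules were chosen after their values were seen, which is not repeated beside each. Klf4, Egr1, Osmr, Cxcl1 and Cxcl10 are among these. The members and lists were chosen with earlier results of these data known. Alternatives were another pseudocount, filter and scaling, each library left out, a replicate block, and the control and 6 h libraries alone.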

Additional observations from a re-analysis of the deposited data

Results flagged for a closer look

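The response to noise at 6 h differed between the Sox2 pull-down and its input, by limma's interaction term (adjusted p between 0.0114 and 0.0466), in 12 named genes; values are differences of log2 responses. It was lower in the pull-down for Ndufa4l2 (-4.09), Cpt1c (-2.22), Mdk (-2.06), Zbtb24 (-1.76), Nmral1 (-1.73) and Rsl24d1 (-1.42). It was higher for Ngp (6.14), Clic3 (5.30), Fdps (3.12), Tpt1 (2.64), Cyb5d1 (2.51) and Pih1d1 (1.21). With the homogenate as a block, Clic3 passed (adjusted p = 0.0410, limma) and the other 11 lay between 0.0906 and 0.228. Cpt1c shows the pattern: 21.5 and 24.0 TPM in the control pull-downs and 6.34 and 6.19 TPM at 6 h, against 7.44 and 6.91 TPM and then 9.28 and 12.2 TPM in the inputs.

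The response also differed between the Sox2 and the outer hair cell pull-down by the same kind of test in 12 named genes (adjusted p between 0.000544 and 0.0476, limma). It was lower in the Sox2 pull-down for Gpr25 (-7.04), Dio3 (-6.30), Bglap2 (-6.17), Vgf (-5.39), Lor (-5.02) and Tnfsf9 (-4.98). It was higher for Clic3 (5.63), Klhdc7b (4.13), Fdps (3.60), Neurl3 (3.58), Hm629797 (3.20) and Apom (2.83). Several of these rest on groups listed at 0, where the size depends on the pseudocount. Hm629797 was at 0 in all Sox2 libraries, and its value comes from outer hair cell levels of 6.10 to 13.5 TPM in controls and 0 at 6 h. Bglap2, osteocalcin of bone cells, read 22.4 and 32.5 TPM in the Sox2 controls and 5.88 and 0.324 TPM at 6 h, against 1.45 to 10.2 TPM and 42.3 to 46.3 TPM in the outer hair cell strain. For Gpr25, 41.6% of the exonic bases overlap an antisense transcript.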

How the results depend on the processing

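Counts of genes past the threshold (limma) moved with the processing. For 6 h against control in the Sox2 pull-down (122), they were 242 with a pseudocount of 0.1, 66 without a filter, 4 to 75 with a library left out, and 0 with a replicate block (1704 at an unadjusted p under 0.05), although control and 6 h libraries share only 1 number. The control and 6 h libraries alone gave 0 (2153 unadjusted), and protein-coding genes alone, an alternative chosen after seeing the data, gave 212. For the input (151), they were 336 with a pseudocount of 0.1, 73 without a filter, 0 to 2057 with a library left out, 0 with the block (1581 unadjusted) and 0 with the 4 libraries alone (1836 unadjusted). For pull-down minus input (50), they were 79 without a filter, 33 at a mean of at least 5 TPM, 4 to 454 with a library left out and 3 with the homogenate block. For Sox2 minus outer hair cell (98), they were 55 at a mean of at least 5 TPM, 148 with median-of-ratios scaling, 53 to 306 with a library left out (those of the outer hair cell strain chosen after seeing the data) and 35 with the block. For 24 h against 6 h (89), they were 158 with a pseudocount of 0.1, 23 without a filter, 49 at a mean of at least 5 TPM, 43 with median-of-ratios scaling, 0 to 46 with a library left out and 0 with the block (1274 unadjusted). Causes were not tested. Of 54 named genes past the threshold at 6 h, 0 changed sign under these alternatives. The largest rises and falls were named only where the groups did not overlap, so leaving out a library could not change their sign. With the replicate block, and with the control and 6 h libraries alone, 0 of the 54 still passed. With another pseudocount 51 still passed, with median-of-ratios scaling 51, without a filter 24, and without control replicate 4 only 1, Mir7-1. Without one library, genes never past the threshold changed sign: Car3 (-0.078 to 0.95), S100a8 (-5.68 to 1.05), Hba-a2 (-2.29 to 0.24), Hba-a1 (-1.76 to 0.25) and Slc26a5 (-0.13 to 1.16). Depth is unknown, so a level of 0 cannot be told apart from a low one.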

Other observations

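Of 18 neuron markers in the Sox2 pull-down at 6 h, 0 passed by limma, and the median was -0.43. At an unadjusted p under 0.05, 2 were higher and 6 lower, against 6.83% and 11.2% of all genes tested. Gap43, a growth cone protein, read 16.9 and 12.8 TPM in controls and 0.854 and 0.866 TPM at 6 h (adjusted p = 0.103), and Thy1 read 361 and 240.2 TPM against 90.3 and 129.5 TPM. Calb2 read 59.1 and 69.3 TPM against 99.4 and 123 TPM.

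Among 5 chloride intracellular channel genes, Clic3 was the 1 that passed. Clic4 read 22.0 and 25.0 TPM in controls and 45.6 and 50.2 TPM at 6 h (adjusted p = 0.0838, limma), and Clic1 read 48.9 and 38.4 TPM against 83.4 and 67.1 TPM (adjusted p = 0.129). The interferon-induced chemokine Cxcl10 read 10.1 and 14.5 TPM in controls, 36.7 and 38.3 TPM at 6 h and 409, 383 and 219.5 TPM at 24 h.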
